A study of Mus musculus with 9 samples.

Results

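Polysialic acid on the neural cell adhesion molecule NCAM depends on 3 genes that are described here across cells with and without knockdown of the cohesin subunit Rad21. St8sia2 and St8sia4 encode the polysialyltransferases, and Ncam1 encodes their main carrier protein. The genes were listed by symbol out of 24503 gene rows, and they were selected on their levels and fold changes between the groups of these same 9 libraries. Those values are therefore given below as a description with no p-value. Where the test run on all genes called a member, the call is reported beside the share of all genes called and supports nothing. All 3 had a row in the table and passed the filter on low counts.

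Polysialic acid is a long, negatively charged chain of sialic acids. It is built in the Golgi on N-glycans of the fifth immunoglobulin domain of NCAM, from sialic acid activated as CMP-sialic acid. The chain keeps cell membranes apart and weakens NCAM adhesion. In the developing brain it is known from migrating neuroblasts, growing axons and oligodendrocyte precursors, where St8sia2 prevails before birth and St8sia4 in the adult. Only mRNA was measured here, so neither the enzymes nor polysialic acid itself is described.

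The cells were primary neural stem cells from the cortex of mouse embryos at E13.5, enriched as neurospheres and then grown on laminin (5 µg/mL) with FGF at 10 ng/mL and EGF at 20 ng/mL. Every group carried the genotype wild type (Phf2flox/flox), in which Phf2 is floxed, and no Cre is named. One group of 3 libraries received a non-targeting hairpin by viral transduction (shNT). The others received a hairpin against Rad21, either shRad21 #1 (shRad21_1, 3 libraries) or shRad21 #2 (shRad21_2, 3 libraries). Harvest time after transduction, and separate cultures or animals behind the libraries, were not given in the sources used here. If replicates share a culture, p-values cover technical spread alone.

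Values are CPM, that is counts scaled to a common library size with TMM factors. Library totals ran from 34780003 to 46644607 counts. The targeted Rad21 mRNA averaged 479 ± 45.0 CPM (SD, n = 3) in shNT against 180 ± 6.92 after shRad21_1 and 85.3 ± 5.19 after shRad21_2, so the 2 hairpins left different amounts of the target. Phf2 was at 146 ± 5.13, 191 ± 5.00 and 197 ± 13.3 CPM. Replicate 1 of shRad21_1 stood apart from replicates 2 and 3. It lay at 10.0 on the first principal component, against -15.5 and -15.7 for them, between -38.3 and -31.1 for shNT and between 40.6 and 44.9 for shRad21_2. Replicates 2 and 3 of shNT, and likewise of shRad21_1, lay much closer together than other pairs (chi-square per gene 3.18 and 2.18, against 23.0 to 69.6). Several results that rest on these libraries are given with and without them.

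The 10 neural stem cell markers were all detected and summed to between 7131 and 9071 CPM per library. Nes, the intermediate filament nestin, lay between 1153 and 2695 CPM in the 9 libraries, Vim between 2484 and 3981 and the transcription factor Sox2 between 267 and 450. Under shRad21_2, Nes and Pax6 rose and Fabp7, Slc1a3, Msi1 and Notch1 fell (60% of the 10 called, against 43.6% of all genes). Under shRad21_1, edgeR called 0 of the 10, against 9.82% of all genes (2 at an unadjusted p under 0.05, 0 by the DESeq2 Wald test and limma-voom). Of 10 immature neuron markers, Neurod2 had 0 counts in all libraries, and Stmn2 had 2, 4 and 5 counts in the 3 groups. The migrating neuroblast marker Dcx did not exceed 5.06 CPM in any library. The list as a whole was not low, since Map2 held between 740 and 1064 CPM in every library.

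St8sia2 lies on the minus strand of chromosome 7 from 73939119 to 74013690 (ENSMUSG00000025789.9), St8sia4 on the minus strand of chromosome 1 from 95587682 to 95667571 (ENSMUSG00000040710.10) and Ncam1 on the minus strand of chromosome 9 from 49502136 to 49798925 (ENSMUSG00000039542.16; GENCODE M21, GRCm38, the build the submitters' notes call mm10). No overlapping gene had counts in the table: Gm11149, antisense to Ncam1, was at 0 in every library, and Gm38143, on the opposite strand within St8sia2, has no row. Since the strand setting of the counting is not given, reads from such partners could not be told apart from those of the named genes.

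The starts of the transferase genes are shown because these 2 genes, which add the same polymer, differed between the groups in unlike ways. Each stretch of 300 bases runs 5′ to 3′ on the gene's own strand, from 250 bases before the RefSeq start to 50 after it (GRCm38.p6), at chr7:74013633-74013932 for St8sia2 and chr1:95667545-95667844 for St8sia4. Capitals mark the GC box GGGCGG on either strand.
St8sia2: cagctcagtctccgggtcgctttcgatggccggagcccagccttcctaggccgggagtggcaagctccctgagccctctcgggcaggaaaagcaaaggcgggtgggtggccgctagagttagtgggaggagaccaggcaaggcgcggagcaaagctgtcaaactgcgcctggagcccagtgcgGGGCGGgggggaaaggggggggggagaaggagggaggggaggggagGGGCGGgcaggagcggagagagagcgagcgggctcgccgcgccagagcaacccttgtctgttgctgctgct
St8sia4: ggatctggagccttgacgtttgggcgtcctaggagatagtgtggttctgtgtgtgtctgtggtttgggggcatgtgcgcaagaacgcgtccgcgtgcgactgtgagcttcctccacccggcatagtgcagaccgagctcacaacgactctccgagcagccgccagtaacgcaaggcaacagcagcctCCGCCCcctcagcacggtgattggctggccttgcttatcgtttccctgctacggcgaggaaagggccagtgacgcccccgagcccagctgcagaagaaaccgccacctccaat
St8sia2 held 2 GC boxes and St8sia4 held 1, and 35.7% of the 32851 RefSeq promoter windows of this length held at least 1. The windows had 20 and 22 CpG dinucleotides, against a median of 7 over all windows. Of all windows, 73.5% held fewer than St8sia2 and 76.9% fewer than St8sia4, so such numbers are common. The TATA box TATAAA, searched on either strand and present in 13.6% of windows, was found in neither; this says only that these letters are not in the windows.

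St8sia2 was low in shNT and higher in every library of both knockdown groups. Its level was 2.58, 2.31 and 1.91 CPM in shNT replicates 1, 2 and 3 (2.27 ± 0.341, SD, n = 3). The shRad21_1 libraries had 15.8, 8.67 and 8.40 CPM (11 ± 4.19) and the shRad21_2 libraries 18.8, 15.6 and 15.2 CPM (16.5 ± 1.93). Neither knockdown group overlapped shNT, whereas replicate 1 of shRad21_1 lay within the range of shRad21_2 and replicates 2 and 3 lay below it. The order was thus shNT, then shRad21_1, then shRad21_2, with the last pair not separated beyond their spread.

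The log2 fold change of St8sia2 against shNT was 2.27 (SE 0.25) under shRad21_1 and 2.87 (SE 0.26) under shRad21_2, that is 4.84-fold and 7.30-fold. Without shRad21_1 replicate 1 the first value was 1.92. Between the hairpins the log2 fold change was 0.59 (SE 0.23), and 0.96 without that replicate. The counts behind these levels ran from 86 to 98 in shNT and from 316 to 847 in the knockdown libraries.

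St8sia4, the transferase that prevails in the adult brain, had a different order. It stood at 3.41, 1.98 and 2.26 CPM in shNT (2.55 ± 0.756, SD, n = 3), at 4.65, 3.71 and 4.81 CPM with shRad21_1 (4.39 ± 0.596) and at 1.75, 2.49 and 2.20 CPM with shRad21_2 (2.15 ± 0.374). All 3 shRad21_1 libraries were above all libraries of the other groups, while shRad21_2 and shNT overlapped. Here replicate 1 of shRad21_1 lay between the other replicates of its group and did not lean toward shRad21_2.

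The log2 fold change of St8sia4 was 0.79 (SE 0.24) under shRad21_1, -0.25 (SE 0.24) under shRad21_2 and -1.04 (SE 0.24) for shRad21_2 against shRad21_1. Replicate 1 of shNT was the highest control library: without it the value was 1.05 under shRad21_1 and 0.01 under shRad21_2, so the sign of the second value rests on that library. Counts were between 77 and 181 per library.

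Ncam1, the carrier, was abundant in shNT and lowest with shRad21_2. It stood at 268, 312 and 297 CPM in shNT (292 ± 22.7, SD, n = 3), at 211, 350 and 352 CPM with shRad21_1 (304 ± 81.1) and at 126, 109 and 103 CPM with shRad21_2 (113 ± 12). The shRad21_2 libraries were below all others. Within shRad21_1 the libraries split around shNT, with replicate 1 below every shNT library and replicates 2 and 3 above every one.

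The log2 fold change of Ncam1 was 0.06 (SE 0.17) under shRad21_1, -1.38 (SE 0.18) under shRad21_2 and -1.43 (SE 0.18) between the hairpins. Without shRad21_1 replicate 1 the first value was 0.26, and the last was -1.64. Ncam1 mRNA with shRad21_2 was thus 0.385 of its level in shNT. In such bulk samples, fewer cells that express a gene and less of its mRNA per cell cannot be told apart.

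**Figure D1:**
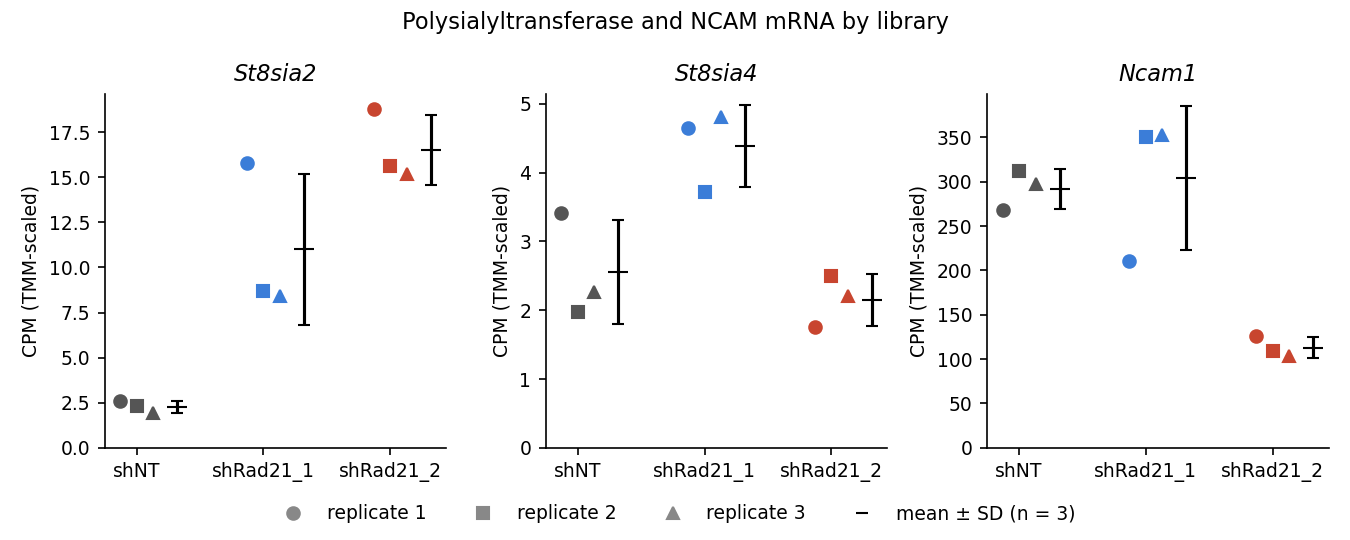
TMM-scaled CPM of St8sia2, St8sia4 and Ncam1 (vertical axes from 0, one scale per panel) in shNT, shRad21_1 and shRad21_2; each symbol is a library, its shape gives the replicate number, and black bars give the mean ± SD (n = 3). St8sia2 is between 1.91 and 2.58 CPM in shNT and at least 8.40 in all knockdown libraries, while replicate 1 of shRad21_1 (circle) is the high one for St8sia2 and the low one for Ncam1.

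By the edgeR test used for all genes, 1 of the 3 genes was called between shRad21_1 and shNT (St8sia2), where 9.82% of the 13560 genes tested were called (4.19% higher and 5.63% lower). It was 2 of 3 between shRad21_2 and shNT (St8sia2 higher and Ncam1 lower; 43.6% of all genes, 21.1% higher and 22.5% lower) and 2 of 3 between the hairpins (St8sia4 and Ncam1, both lower with shRad21_2; 26.3% of all genes, 11.9% higher and 14.4% lower). The genes were chosen with these contrasts in view, and nothing is read from the counts. The comparisons against shNT share their control libraries.

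Scaled to length, Ncam1 mRNA was far above both transferases, and St8sia2 was above St8sia4 in every library. By counts alone, St8sia2 made up 43.1%, 53.8% and 45.7% of both transferases in shNT replicates 1, 2 and 3. Its place above St8sia4 in replicates 1 and 3 thus rests on the lengths used. With the longest protein-coding transcript as length (5368 bases for St8sia2, 10027 for St8sia4 and 6050 for Ncam1), shNT had 48.3 ± 3.74 CPM per kilobase of Ncam1, 0.423 ± 0.0635 of St8sia2 and 0.254 ± 0.0754 of St8sia4 (SD, n = 3). With shRad21_2 these levels were 18.6 ± 1.99, 3.08 ± 0.360 and 0.214 ± 0.0373. Ncam1 has several isoforms, and which of them these cells use is not given by counts per gene. The transcript of St8sia4 in use is not given either, and a shorter one would raise its level on this scale.

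The transferase mRNA therefore consisted more of St8sia2 in the knockdown libraries. On this scale St8sia2 made up 58.6%, 68.5% and 61.2% of both transferases in shNT replicates 1, 2 and 3, with exact Clopper-Pearson 95% intervals of 51.7 to 65.1, 61.7 to 74.7 and 53.9 to 67.9. The share was 86.4%, 81.4% and 76.5% with shRad21_1 and 95.2%, 92.1% and 92.8% with shRad21_2. The 3 groups did not overlap in this share, which follows from the levels above. With the summed exon length in place of the longest transcript, the shares ran from 67.0% to 75.7% in shNT and from 94.4% to 96.6% with shRad21_2. The intervals cover counting error only.

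**Figure D2:**
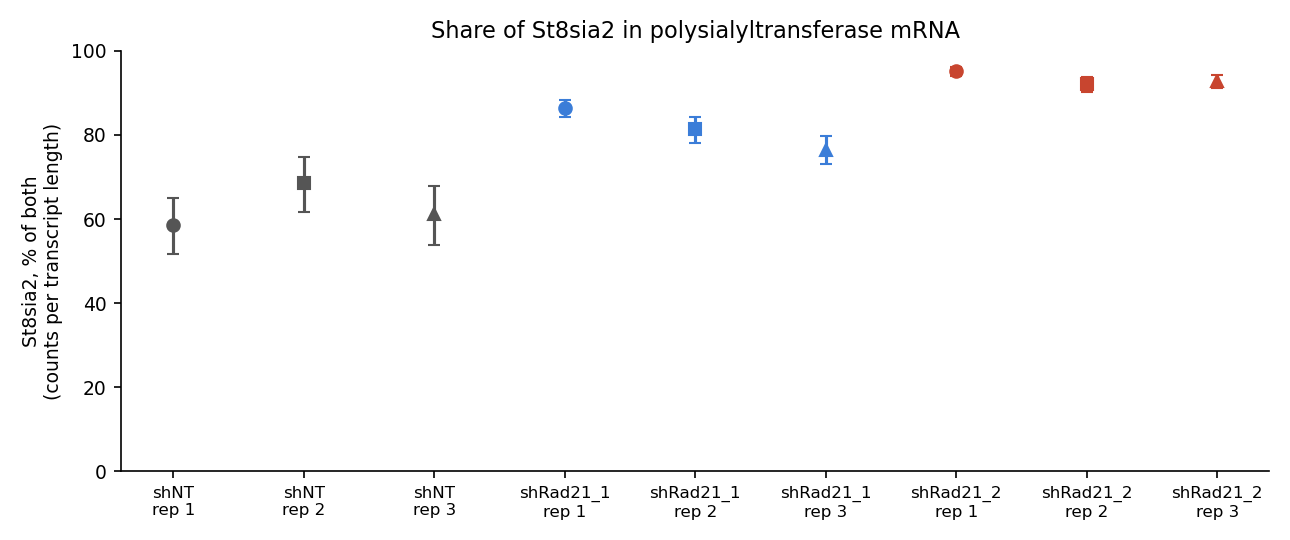
St8sia2 as a percentage of St8sia2 plus St8sia4 (vertical axis, counts divided by transcript length) in each of the 9 libraries; bars are exact 95% intervals for counting error. The shNT libraries lie between 58.6% and 68.5%, the shRad21_1 libraries between 76.5% and 86.4% and the shRad21_2 libraries between 92.1% and 95.2%.

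The level of carrier mRNA relative to enzyme mRNA was lower in the knockdown libraries. Per length, Ncam1 was 53.9, 82.1 and 84.6 times the sum of both transferases in shNT, 10.2, 29.2 and 28.4 times with shRad21_1 and 5.68, 5.70 and 5.57 times with shRad21_2. Replicate 1 of shRad21_1 lay between the other shRad21_1 libraries and shRad21_2.

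Of 64 other genes of sialic acid metabolism, N-glycan branching, polysialic acid carriers and NCAM binding, listed by function, 55 passed the filter and 5 had 0 counts in all libraries. Under shRad21_1, 2 of the 55 were called higher and 8 lower (18.2%, against 9.82% of all genes; median log2 fold change -0.13, against 0.01 over all genes). Under shRad21_2, 7 were higher and 31 lower (69.1%, against 43.6%; median -0.55, against 0.01), and between the hairpins 3 were higher and 24 lower with shRad21_2 (49.1%, against 26.3%; median -0.31). Without shNT replicate 2 the shRad21_1 count of 10 was 5, and without shNT replicate 3 it was 6. With the close pairs of libraries, replicates 2 and 3 of shNT and of shRad21_1, each summed to 1 library it was 2, and the count of 27 between the hairpins was 10. Fitted on those groups alone, the count between the hairpins was 17. Calls over all genes fell too: with close pairs summed, 130 of 13636 genes were called under shRad21_1, against 1331 of 13560 in the main fit. The lower count of related genes in that fit is therefore not particular to them.

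Of 5 genes that make and transport the activated sugar, 1 was called under shRad21_2 (20%, against 43.6% of all genes). Gne, the bifunctional epimerase and kinase that limits sialic acid synthesis, fell from 76.6 ± 1.40 CPM in shNT to 59.8 ± 8.76 with shRad21_2 (n = 3 each; log2 fold change -0.36, SE 0.10, edgeR adjusted p = 0.0158), a call that did not hold without shNT replicate 3 (-0.34, adjusted p = 0.0565; range over 18 alternatives 0.00264 to 0.0778). The synthase gene Nans, the phosphatase gene Nanp, the CMP-sialic acid synthetase gene Cmas and the Golgi transporter gene Slc35a1 had values of 0.03, 0.01, 0.28 and -0.04 under shRad21_2 and were not called. Cmas was at 42.6 CPM in shRad21_2 replicate 1 and at 66.1 and 66.2 in replicates 2 and 3, and it was called higher without the first (0.46, adjusted p = 0.00172). Under shRad21_1 edgeR called 0 of these 5 genes, where it called 9.82% of all genes. Among the 5, 0 had an unadjusted p under 0.05 and 0 were called by the DESeq2 Wald test and limma-voom.

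The other ST8 sialyltransferases did not share the pattern of St8sia2. St8sia1, the GD3 ganglioside synthase, stood at 212, 222 and 219 CPM in shNT, at 228, 133 and 133 with shRad21_1 and at 58.8, 97.8 and 70.0 with shRad21_2. It fell under shRad21_2 (-1.53, SE 0.23, edgeR adjusted p = 6.12e-04) and was not called under shRad21_1 (-0.40, adjusted p = 0.287), where it was called without replicate 1. That replicate, which leaned toward shRad21_2 for St8sia2 and Ncam1, was at the level of shNT for St8sia1. St8sia5, which also acts on gangliosides, went from 1.10 ± 0.228 to 0.132 ± 0.0973 CPM with shRad21_2 (134 counts in the 3 shNT libraries and 16 in the 3 shRad21_2 libraries; -2.97, SE 0.49, adjusted p = 0.00104). St8sia3 had 0 counts in all libraries and St8sia6 had 3, 2 and 6 counts in the 3 groups, below what could be tested.

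Of 12 tested ST3 and ST6 genes, which cap glycans with a single sialic acid, 1 was higher and 1 lower under shRad21_1 (16.7%, against 9.82% of all genes). Under shRad21_2, 2 were higher and 4 lower (50%, near the 43.6% of all genes). St6gal1, which caps the N-glycans of glycoproteins, fell from 45.9 ± 3.79 CPM to 32.3 ± 4.54 with shRad21_1 (-0.50, SE 0.12, edgeR adjusted p = 0.0237) and to 27.1 ± 2.00 with shRad21_2 (-0.76, SE 0.12, adjusted p = 7.04e-04). St3gal1, which caps O-glycans, rose from 7.43 ± 0.772 to 14.1 ± 2.51 CPM with shRad21_1 (0.93, SE 0.17, adjusted p = 0.0104) and to 11.7 ± 2.01 with shRad21_2 (0.65, SE 0.17, adjusted p = 0.0130). Both calls under shRad21_1 were lost without shNT replicate 2 or 3 and with close pairs of libraries summed, and the list then had 0 members called. With close pairs summed, 130 of 13636 genes were called in all. For St6gal1 the call under shRad21_1 was also lost without shRad21_1 replicate 2 or 3 (adjusted p over 18 alternatives 0.00150 to 0.229). For St3gal1 the call under shRad21_2 was lost without shNT replicate 2 and with close pairs summed (adjusted p over 18 alternatives 0.00186 to 0.0664).

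Of 3 tested enzymes that remove or break down sialic acid, 2 fell under shRad21_1 and 3 under shRad21_2, where 5.63% and 22.5% of all genes fell. Npl, the lyase that cleaves free sialic acid, stood at 30.7, 25.0 and 24.8 CPM in shNT, at 16.9, 14.3 and 14.5 with shRad21_1 and at 12, 12.1 and 12.8 with shRad21_2. Its log2 fold change was -0.81 (SE 0.11) for shRad21_1 and -1.12 (SE 0.12) for shRad21_2, with edgeR adjusted p-values of 0.00308 and 6.59e-05, and no groups overlapped. The Npl call under shRad21_1 was lost with close pairs of libraries summed, where 0 of the 3 tested enzymes and 130 of all 13636 genes were called. The lysosomal sialidase gene Neu1 had values of -0.79 and -0.45 (SE 0.10 each) for shRad21_2 and shRad21_1, with adjusted p = 2.40e-04 and 0.0224. The latter call was lost without any shNT library or without shRad21_1 replicate 2 or 3 (highest adjusted p 0.205). The sialidase gene Neu3 fell under shRad21_2 (-1.20, SE 0.23, adjusted p = 0.00262) and between the hairpins (-0.82, adjusted p = 0.0303). The Neu3 call between the hairpins was lost on those groups alone, with close pairs summed, and without shNT replicate 3. It was also lost without shRad21_1 replicate 2 and without shRad21_2 replicate 2 or 3. Neu2 had 0 counts and Neu4 had 1, 8 and 0 counts in the groups.

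Genes listed for N-glycan branching, not all of which act on the glycans that carry the polymer, were mostly lower with shRad21_2. Of 16 tested, 4 were higher and 9 lower under shRad21_2 (median log2 fold change -0.47; 21.1% and 22.5% of all genes), and 1 was higher and 1 lower under shRad21_1 (4.19% and 5.63% of all genes). Mgat5, which adds a branch to complex N-glycans, fell from 27.6 ± 0.910 to 10.3 ± 2.82 CPM with shRad21_2 (-1.42, SE 0.18, edgeR adjusted p = 2.12e-04), and was at 24.9 ± 3.34 with shRad21_1. Mgat4a, which adds another branch, fell by 0.94 (SE 0.12, adjusted p = 1.93e-04). The galactosyltransferase gene B4galt1 fell by 1.04 (SE 0.17, adjusted p = 9.18e-04) and, under shRad21_1, by 0.87 (SE 0.17, adjusted p = 0.0107). The latter call was lost without shNT replicate 2 and with close pairs of libraries summed. The 4 higher members numbered 2 without shNT replicate 2 or 3, without any shRad21_2 library, and on plain library totals.

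Mgat5b was the member of this list called higher under shRad21_1, and 1 of the 4 called higher under shRad21_2. It is known mainly for branching O-mannosyl glycans of the brain and not N-glycans. It stood at 6.71, 5.10 and 5.08 CPM in shNT, at 18.5, 16.2 and 15.7 with shRad21_1 and at 21.5, 18.8 and 18.6 with shRad21_2. It rose with both hairpins, with log2 fold changes of 1.58 and 1.81 (SE 0.14 each; edgeR adjusted p = 3.63e-04 for shRad21_1 and 1.37e-05 for shRad21_2). Along with Nrcam below, it was 1 of 2 related genes called under shRad21_1 in all 18 alternatives.

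Among other proteins known to carry polysialic acid, Nrp2, the semaphorin and VEGF receptor neuropilin-2, stood at 61.2, 49.0 and 47.7 CPM in shNT, at 22.3, 32.9 and 32.4 with shRad21_1 and at 33.9, 34.9 and 27.8 with shRad21_2. It fell under shRad21_1 (-0.85, SE 0.16, edgeR adjusted p = 0.0116) and under shRad21_2 (-0.71, SE 0.16, adjusted p = 0.00624). With close pairs of libraries summed the first was not called (-0.99, adjusted p = 0.0683; range over 18 alternatives 3.20e-05 to 0.0683). Glg1, which encodes the Golgi glycoprotein ESL-1, fell under shRad21_2 (-0.56, SE 0.14, adjusted p = 0.00800). Cadm1, the adhesion molecule SynCAM 1, was at 73.3, 69.8 and 77.0 CPM in the 3 groups and was not called, and Ccr7 had 0 counts.

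Relatives and partners of NCAM were mostly lower with shRad21_2: of 14 tested, 1 rose and 10 fell (78.6%, against 43.6% of all genes), and under shRad21_1 0 rose and 3 fell (21.4%, against 9.82%). Chl1, an adhesion molecule of the L1 family, stood at 195, 211 and 209 CPM in shNT, at 68.0, 173 and 169 with shRad21_1 and at 11.8, 11.1 and 7.62 with shRad21_2 (-4.33, SE 0.34, edgeR adjusted p = 1.53e-05). As with Ncam1, replicate 1 of shRad21_1 was the lowest of its group, but here all 3 libraries of the group were below shNT (-0.58, adjusted p = 0.239, not called). Nrcam, of the same family, fell under shRad21_1 from 106 ± 2.93 to 46.9 ± 12.1 CPM (-1.18, SE 0.18, adjusted p = 0.00460) and under shRad21_2 to 18.8 ± 3.05 (-2.50, SE 0.19, adjusted p = 1.23e-05).

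Most of the partners named here were also lower with shRad21_2. Gfra1, the GDNF receptor that can signal with NCAM, had a log2 fold change of -2.16 (SE 0.20) for shRad21_2 against shNT and the contactin gene Cntn1 one of -2.52 (SE 0.26), with edgeR adjusted p = 4.00e-05 and 7.30e-05. In that comparison the kinase gene Fyn fell by 0.68 (SE 0.08, adjusted p = 1.43e-04), and the growth cone gene Gap43 by 1.72 (SE 0.18, adjusted p = 7.76e-05). The prion protein gene Prnp, whose product binds NCAM, fell by 0.84 (SE 0.07, adjusted p = 2.57e-05), and under shRad21_1 by 0.42 (SE 0.07, adjusted p = 0.00720). The latter call was lost with close pairs of libraries summed. The focal adhesion kinase gene Ptk2 was the member that rose (0.61, adjusted p = 0.00147), and Fgfr1, the FGF receptor that NCAM is known to engage, had a value of 0.04 and was not called. Ptk2 and Fgfr1 fell outside the rule for naming genes and were chosen after their values were seen.

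**Figure D3:**
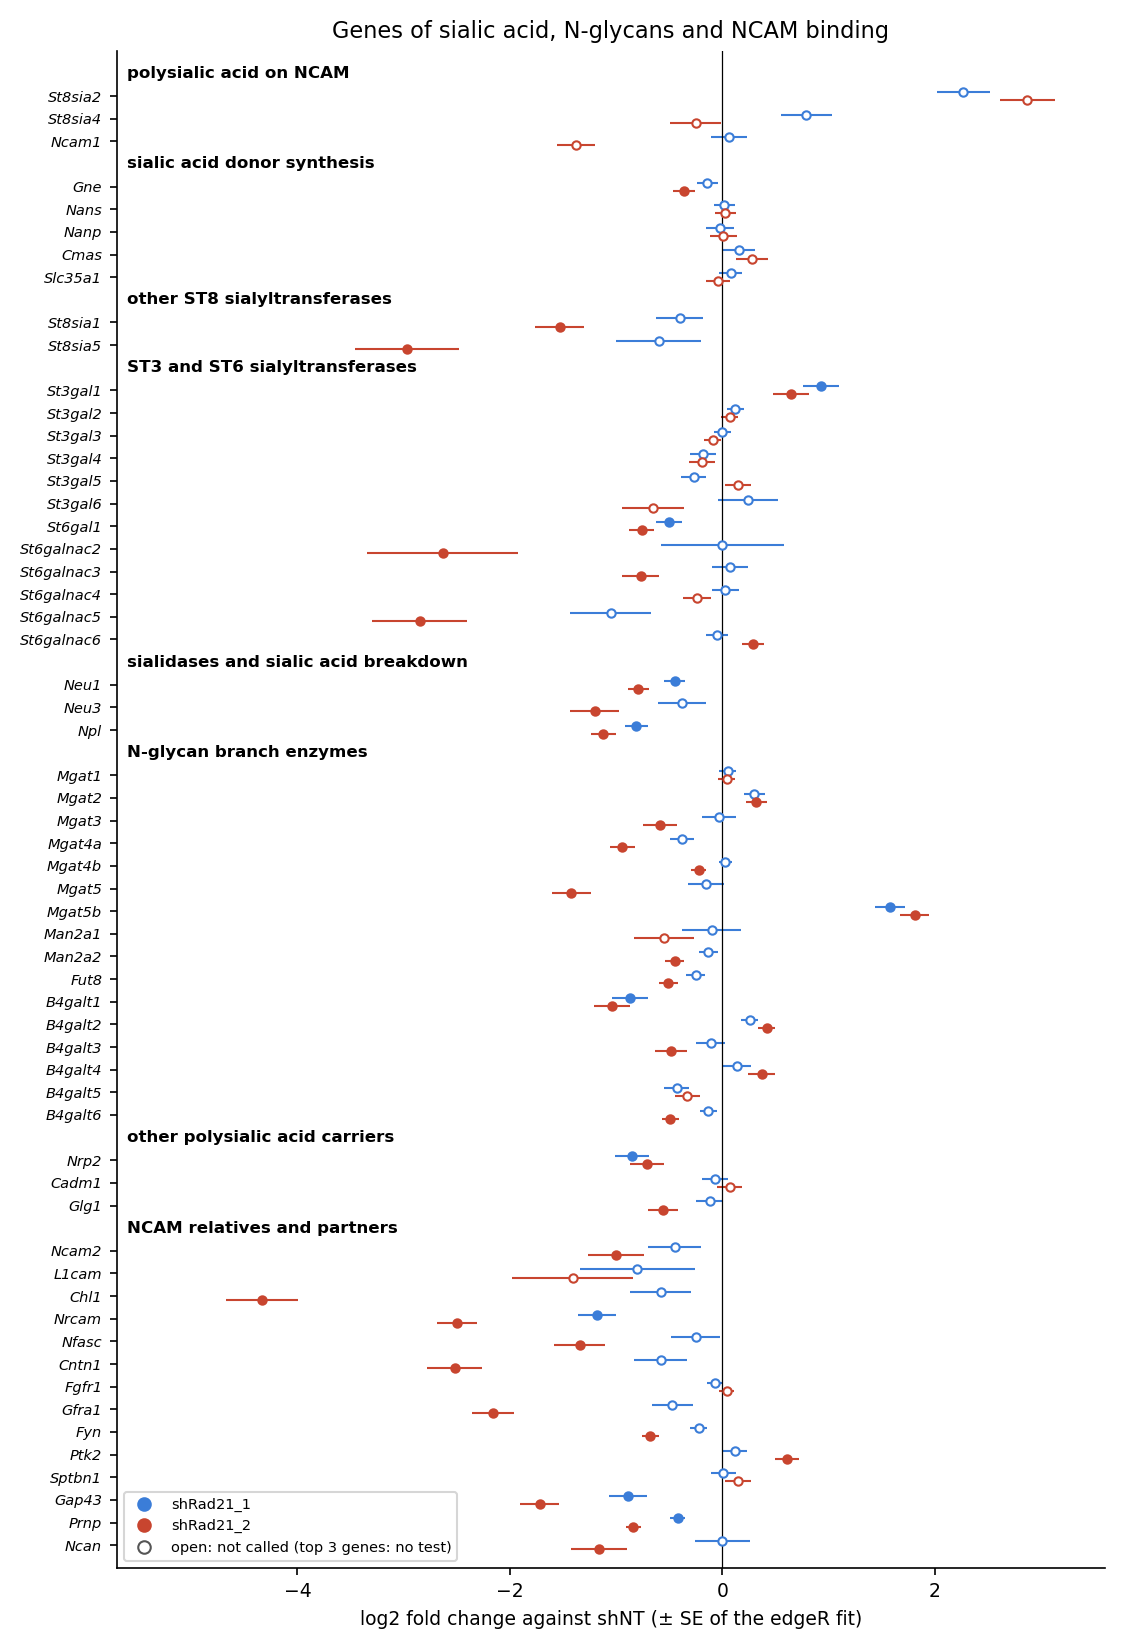
Log2 fold change against shNT (horizontal axis, bars ± SE of the edgeR fit) of the 3 genes described here and of the 55 tested related genes by list, under shRad21_1 (blue) and shRad21_2 (red); filled points passed an adjusted p of 0.05. St8sia2 and Mgat5b lie to the right under both hairpins, and Chl1 at -4.33 is the leftmost point.

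Marker genes of other cell types were measured in the same libraries. The summed level of 8 astrocyte markers was between 761 and 776 CPM in shNT, 573, 794 and 782 in shRad21_1 replicates 1, 2 and 3, and between 374 and 460 with shRad21_2. As for Ncam1, shRad21_2 was lowest, and within shRad21_1 replicate 1 was below all shNT libraries and replicates 2 and 3 above them; the order within shNT differed. Of the 8, 6 fell and 0 rose under shRad21_2 (22.5% of all genes fell), among them Gfap, with 1005 counts in shNT and 4 with shRad21_2. Under shRad21_1, edgeR called 0 of the 8, against 9.82% of all genes (2 at an unadjusted p under 0.05, 0 by the DESeq2 Wald test and limma-voom). Gfap was at 0.190 CPM in shRad21_1 replicate 1 and at 14.6 and 15.1 in replicates 2 and 3. The part of astrocyte-like cells in the level of Ncam1 was not tested.

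Markers of immature neurons and oligodendrocyte precursors, cell types in which polysialic acid is known, were measured as well. The 10 neuronal markers summed to between 793 and 939 CPM in shNT, 936 to 974 with shRad21_1 and 1005 to 1141 with shRad21_2, most of it Map2. Their sum had the group order of St8sia2, with shNT replicate 1 (939) just above the lowest shRad21_1 library. Of 7 tested, 2 rose (Map2 and Elavl4) and 2 fell (Dcx and Rbfox3) under shRad21_2, where 21.1% of all genes were called higher and 22.5% lower. Without shNT replicate 2 or 3, or with close pairs summed, 1 rose and 1 fell of 8 tested. Without shNT replicate 1, 3 rose and 2 fell. The 8 precursor markers summed to between 2754 and 2884 CPM in shNT, 3089 to 3226 with shRad21_1 and 2692 to 3085 with shRad21_2, most of it Olig1 and Olig2. Of 7 tested precursor markers, 1 rose and 5 fell under shRad21_2 (median log2 fold change -2.54, where 22.5% of all genes fell). Under shRad21_1 Pdgfra alone was called in the main fit (lower, edgeR adjusted p = 0.0242), that is 14.3% of the 7 against 9.82% of all genes. There, 0 of the 7 were called when any 1 of the shNT libraries was left out or with close pairs summed. Other alternatives called more of them. The DESeq2 Wald test called 1 higher and 2 lower, and limma-voom and the replicate block each called 2 lower. Fitted on those groups alone, 2 were higher and 2 lower. Pdgfra, which defines precursors, had 60.5 to 65.2 CPM in shNT, 18.9, 38.9 and 35.7 in the shRad21_1 libraries, and between 4.25 and 6.19 with shRad21_2 (edgeR log2 fold change -3.59, adjusted p = 9.51e-06), and Sox10 had 15, 5 and 0 counts in the 3 groups. Their part in the level of St8sia2 was not tested. Microglia markers summed to at most 3.05 CPM, with Cx3cr1 and Aif1 at 0, and endothelial and mesenchymal markers to at most 4.97 CPM.

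The neighbours of each gene were read because cohesin shapes contacts along a chromosome. Around St8sia2, the nearest tested protein-coding genes did not share its difference from shNT. Fam174b, 162 kb away on the side of lower coordinates, stood at 51.2, 45.5 and 45.8 CPM in shNT, at 67.9, 32.3 and 28.8 with shRad21_1 and at 40.5, 39.5 and 43.3 with shRad21_2. Slco3a1, an anion transporter gene 262 kb away on the other side, stood at 25.9, 25.1 and 23.9 CPM in shNT, at 37.7, 17.9 and 17.0 with shRad21_1 and at 21.3, 20.0 and 20.1 with shRad21_2. Both were highest of all 9 libraries in shRad21_1 replicate 1, the library in which St8sia2 was highest of its group, and were below shNT in the other knockdown libraries.

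Neither Fam174b nor Slco3a1 was called against shNT under either hairpin (edgeR log2 fold changes -0.14 and -0.05 under shRad21_1 and -0.21 and -0.29 under shRad21_2). Without shRad21_1 replicate 1 both were called lower under shRad21_1 (-0.64, adjusted p = 0.00263, and -0.52, adjusted p = 0.00647), and Slco3a1 also under shRad21_2 (-0.28, adjusted p = 0.0162). The next genes out, Chd2, a chromatin remodeler gene at 397 kb, and Akap13, a kinase anchor gene at 1442 kb, were not called either. Akap13 was at 114 CPM in shRad21_2 replicate 2 and at 72.2 and 56.3 in replicates 1 and 3, and it was called without replicate 3 (0.69, adjusted p = 0.0159).

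Around Ncam1, the nearest tested genes were lower with shRad21_2, in a comparison where 22.5% of all genes were called lower. Whether their level is tied to that of Ncam1 was not tested. Ttc12, 15.9 kb beyond the 3′ end of Ncam1, went from 2.18 ± 0.756 to 0.606 ± 0.211 CPM (edgeR log2 fold change -1.85, SE 0.37, adjusted p = 0.00301), and the protease gene Tmprss5 from 0.892 ± 0.429 to 0.154 ± 0.06 (109 counts in shNT and 18 with shRad21_2; -2.49, SE 0.57, adjusted p = 0.00602). On the other side, 723 and 734 kb away, Pts fell by 0.38 (SE 0.12, adjusted p = 0.0225; lost without shNT replicate 2 or shRad21_2 replicate 2) and the carotene oxygenase gene Bco2 by 2.04 (SE 0.27, adjusted p = 3.05e-04). Unlike Ncam1, Tmprss5 and Bco2 were also below shNT in all shRad21_1 libraries. Tmprss5 was at 0.163, 0.32 and 0.0798 CPM there against 0.444 to 1.3 in shNT (-2.23, SE 0.56, adjusted p = 0.0332; lost in 6 of 17 alternatives). Bco2 was low in the shRad21_1 libraries at 0.843, 0.800 and 0.771 CPM against 1.46 to 1.97 in shNT (-1.03, SE 0.25, adjusted p = 0.0317). The Bco2 call was lost in 7 of 18 alternatives, among them the fit with the replicate number as a block (-1.03, adjusted p = 0.0510). Untested genes lie between these neighbours.

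St8sia4 lies alone, with its nearest tested neighbour, Fam174a, 252 kb away and the others between 1735 and 2038 kb. Fam174a and D2hgdh, on the side of lower coordinates, fell under shRad21_2, where 22.5% of all genes fell (-0.47, SE 0.11, edgeR adjusted p = 0.00695, and -0.84, SE 0.16, adjusted p = 0.00202). On the other side D1Ertd622e rose (0.40, SE 0.14, adjusted p = 0.0379), a call lost in 6 of 18 alternatives, and Ppip5k2 was not called. Under shRad21_1, where St8sia4 was highest, edgeR called 0 of these 4 and 9.82% of all genes, so little is read from that count. D1Ertd622e was called with the replicate number as a block (0.43, adjusted p = 0.0114).

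**Figure D4:**
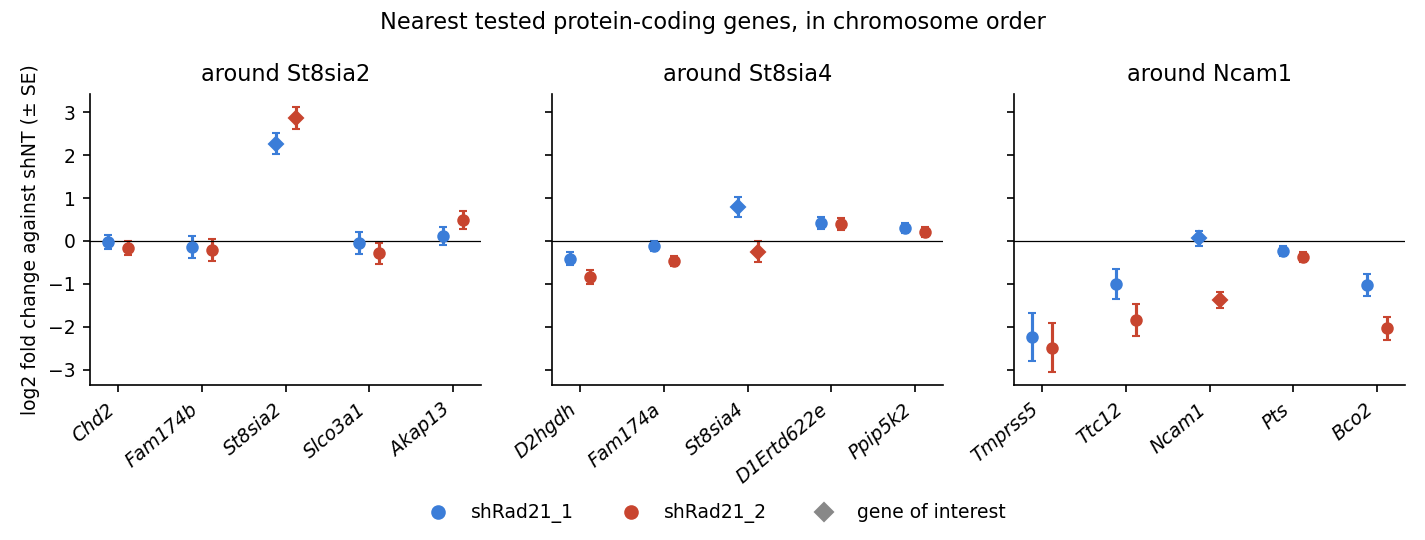
Log2 fold change against shNT (vertical axis, bars ± SE) of each gene of interest (diamonds) and the 2 nearest tested protein-coding genes on each side in chromosome order (circles, not to scale in distance), under shRad21_1 (blue) and shRad21_2 (red). St8sia2 stands at 2.27 and 2.87 with its neighbours between -0.29 and 0.49, while Ttc12, Tmprss5 and Bco2 lie below 0 under both hairpins.

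The genes whose level over the 9 libraries was most like each of the 3 were found by Pearson's r of log2(CPM + 0.5) among 11669 tested genes with a mean of at least 1 on that scale. All points share the 3 groups and the library that stands apart, so r is a description. For St8sia2 these were Large (r = 0.987), which extends O-mannosyl glycans, and Ick (0.985), Dyrk3 (0.985) and Uri1 (0.983). Their differences were small beside that of St8sia2: Large, with the highest r, went from 42.1 ± 0.195 to 54.3 ± 4.63 and 57.2 ± 0.732 CPM.

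For Ncam1 the genes most like it were Hepacam (r = 0.994), an adhesion molecule of astrocytes, Smoc1 (0.991), the neuroligin gene Nlgn1 (0.991) and the transporter gene Slc6a17 (0.990). Hepacam stood at 65.8, 75.5 and 72.3 CPM in shNT, at 51.6, 106 and 106 with shRad21_1 and at 21.8, 20.3 and 19.2 with shRad21_2, with the same split of shRad21_1 around shNT as Ncam1. For St8sia4 they were the Wnt antagonist gene Sfrp1 (0.974), Setbp1 (0.949), Chsy1 (0.947), an enzyme of chondroitin sulfate synthesis, and Atp7b (0.942). Among the 3 genes themselves r was -0.68 for St8sia2 and Ncam1, 0.10 for St8sia2 and St8sia4 and 0.49 for St8sia4 and Ncam1.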

How the data were processed

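The deposited table holds raw counts per gene symbol, whole numbers for 9 libraries. Per the submitters' processing notes, FastQC, cutadapt, Trim Galore, Bowtie2 and RSEM were used with build mm10; details of versions, annotation, strand and rounding were not given in the sources used here. No library was left out; 3 counts correspond to between 0.0643 and 0.0863 CPM.

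Genes were tested with edgeR 4.0.16 (R 4.3.3): TMM scaling, filterByExpr by group (13560 genes), a single quasi-likelihood fit of 3 group means, two-sided tests, Benjamini-Hochberg adjustment over all genes, called under 0.05. SE is the absolute log2 fold change over the root of F. The code was tested on simulated data. Lengths and positions came from GENCODE M21 by symbol (23334 of 24503 rows matched), promoters from RefSeq (GRCm38.p6), found for St8sia2 and St8sia4.

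The genes described, the lists and the tests were chosen with earlier results of these data known. Genes named are the 3 members, Rad21, Phf2, all donor synthesis, ST8 and carrier genes, the 4 members of each other related list with the smallest p in each comparison, 2 tested neighbours a side and the 4 genes most alike; markers and others named fell outside it and were chosen after their values were seen. Same-numbered libraries of shNT and shRad21_1 deviated together (r = 0.29, 0.17 and 0.18), those of other group pairs not throughout (0.00 to 0.17). Unlike numbers did so too, with r = 0.22 for shNT replicate 2 and shRad21_1 replicate 3. For shNT replicate 3 and shRad21_1 replicate 2 it was 0.21, so replicates 2 and 3 were not paired by number. Alternatives were DESeq2 1.42.0 size factors and Wald test, library totals, limma-voom (limma 3.58.1), 2 filters, fits of 2 groups, a replicate block, close pairs summed and each library left out.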

Additional observations from a re-analysis of the deposited data

Results flagged for a closer look

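St8sia4 is listed because its libraries lay on opposite sides of the shNT mean of 2.55 CPM under the 2 hairpins. With shRad21_1 all 3 were above it (3.71 to 4.81 CPM) and with shRad21_2 all 3 were below it (1.75 to 2.49 CPM), and the log2 fold change of shRad21_2 against shRad21_1 was -1.04. The edgeR fit across all genes called St8sia4 lower with shRad21_2 than with shRad21_1. Since the gene was chosen with its values in view, that call is a description and no p-value is given. The side of shRad21_2 rests on shNT replicate 1 at 3.41 CPM, without which its log2 fold change against shNT was 0.01.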

How the results depend on the processing

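The 3 counts of related genes and the 9 fold changes of St8sia2, St8sia4 and Ncam1 were recomputed under 18 alternatives each. The count of 10 under shRad21_1 was 2 with close pairs summed and ran from 5 to 13 with a library left out. The count of 27 between the hairpins was 17 with 2 groups only, 10 with close pairs summed, and 18 to 28 with a library left out; the count of 38 under shRad21_2 ran from 32 to 42. The count over all genes was 130 of 13636 under shRad21_1 with close pairs summed. With a library left out, St8sia2 ran from 1.92 to 2.43 under shRad21_1 and from 0.44 to 0.96 between the hairpins, and its other values stayed within 1 SD of the replicates under all alternatives, as did those of St8sia4 and Ncam1. The direction of St8sia4 under shRad21_2 (-0.40 to 0.01) and of Ncam1 under shRad21_1 (-0.06 to 0.26) was not fixed. St8sia4 under shRad21_1 was called in 3 of 18 alternatives (DESeq2 Wald test, limma-voom, without shNT replicate 1) and St8sia2 between the hairpins in 4 (the same tests, the replicate block at 0.64, without shRad21_1 replicate 1), neither otherwise. Both genes were chosen with these contrasts in view, so such calls are a description and support nothing. Fam174b between the hairpins, -0.06, ran from -0.28 to 0.43 with a library left out, the last without shRad21_1 replicate 1 (adjusted p = 0.00744), which held 67.9 CPM. With the replicate number as a block, 11, 38 and 28 related genes were called in the 3 comparisons, and of the named genes the block changed the call of Bco2 and D1Ertd622e, as given above. Counts of 77 to 181 per library for St8sia4, and of 86 to 98 in shNT for St8sia2, limit the precision of both.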
